A study of Homo sapiens with 2 samples.

Results

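The genes described here encode the nuclear pore complex and the machinery that moves cargo through it: 28 nucleoporins, 17 importins, 7 exportins and 4 genes of the RAN GTPase cycle. The members are 56 listed gene symbols, and every probe set was kept whose platform annotation gives exactly 1 symbol from that list, which left 164 probe sets. They were set against 19775 genes with such a probe set on the whole array. All 56 genes had at least 1 probe set. Messenger RNA was measured on 2 Affymetrix Human Genome U133 Plus 2.0 arrays from CL1-5, a highly invasive human lung adenocarcinoma cell line. Cells of 1 culture were exposed for 24 h to analogue 3, a desmosdumotin C analogue whose label names iodo, tripropyl and methoxy groups, at 0.11 µM, and cells of the other culture received the solvent DMSO for the same time. The submitters give the same concentration as the ED50 of analogue 3 in this line. With 1 array per group no difference has a replicate check, no p-value is given, and every comparison below describes these 2 arrays.

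The nuclear pore complex is a ring-shaped channel through the nuclear envelope. Outer and inner rings form its scaffold, membrane nucleoporins anchor it, and nucleoporins rich in phenylalanine-glycine repeats fill the channel and extend to both faces. Importins carry cargo with a nuclear localisation signal inward and release it on binding RAN-GTP, and exportins bind cargo together with RAN-GTP and release it in the cytoplasm. The exchange factor RCC1 sits on chromatin and keeps RAN in its GTP form inside the nucleus, and RANGAP1 with RANBP1 drives hydrolysis outside. In dividing cells the complex is taken apart and rebuilt at each mitosis, and several of these proteins act on the spindle and kinetochores meanwhile.

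Intensities are multiples of the array median. Each gene was read from its brightest single-gene probe set, log2 values under 5 (an intensity of 32) were set to 5 as a floor, and the difference is analogue 3 minus DMSO. A gene was measured if at least 1 array reached the floor. Where DMSO was under the floor, a fold is a lower bound and is written "at least". Levels of different genes are not compared with each other, since probe sets differ in brightness. The spread that 2 arrays can show is that between probe sets of a gene: over 1127 genes with at least 2 probe sets that reached the floor on each array, the SD of 1 probe set was 0.17 on the log2 scale. That value is the spread of 1 probe set used below, and over the 13 listed genes among the 1127 it was 0.22. Both values leave out the error of culture, RNA extraction and hybridisation.

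On these arrays KRT18 and KRT8, keratins of simple epithelia, reached the floor, as did the mesenchymal filament gene VIM. KRT8 had 77.77 with analogue 3, against 42.34 with DMSO (1.84-fold higher), KRT18 had 457.9 with analogue 3 and 460.8 with DMSO, and VIM had 1868 with analogue 3 and 1883 with DMSO. Of 6 epithelial markers these 2 keratins were measured, with a summed intensity over all 6 of 544.4 with analogue 3 and 508.1 with DMSO, and the part of KRT8's difference in the results below was not tested. The epithelial adhesion genes EPCAM and CDH1 stayed at or below 0.536 on both. Of the 4 lung epithelial lineage markers NKX2-1, NAPSA, SFTPB and SFTPC, 0 were measured, and the highest intensity, that of SFTPB, was 3.51 with analogue 3 and 3.55 with DMSO, so the markers that define differentiated lung epithelium did not reach the floor on either array. Markers of leukocytes, fibroblasts and endothelium were also under the floor on both arrays, with 4 markers read for each and summed intensities of 2.55, 7.54 and 19.0 with analogue 3 and 3.07, 5.98 and 14.4 with DMSO. Control probe sets at the 3′ end exceeded those at the 5′ end of GAPDH by factors of 1.18 with analogue 3 and 1.21 with DMSO, and those of ACTB by 10.0 with analogue 3 and 11.8 with DMSO. The part of RNA quality in the differences below was not tested.

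Most scaffold nucleoporins, the membrane anchor NDC1 and the RAN regulators RANBP1 and RCC1 were higher with analogue 3, most importins lay close to their DMSO level, and the tRNA exporter XPOT was lower. Of the 56 genes, 44 were measured, 40 of them on both arrays and 4 only through the analogue 3 array. Among the 44, 13 were at least 1.5-fold higher, against 9.45% of all 5050 measured genes, and 6 were at least 2-fold higher, against 3.47%. XPOT was the 1 member at least 1.5-fold lower, against 9.13% of all measured genes. It was also the 1 member at least 2-fold lower, a share near the 2.67% of all measured genes. The floored difference was above 0 for 37 of the 44, against 48.4% of all measured genes. The 4 members measured only through the analogue 3 array lie above 0 by that rule. Over all measured genes, 313 were measured only through analogue 3 and 449 only through DMSO. Of the 40 members measured on both arrays, 33 were above 0 and 11 at least 1.5-fold higher, against 9.26% of all genes measured on both. The median log2 difference of the 44 was 0.34, and that of all measured genes was -0.01. With a floor of log2 7, which left 20 members measured, 6 were at least 1.5-fold higher, against 7.6% of all genes measured there, and 2 at least 2-fold higher, against 2.22%. When a gene was read as the median over its probe sets, 7 of 23 were at least 1.5-fold higher, against 11.5% of all genes. Without any floor, 44 of the 56 members lay above 0, against 8777 of all 19775 genes, and the median was 0.31, against -0.01 over all genes. These are bulk RNA levels, so a change in the number of cells that express a gene and a change in RNA per cell cannot be told apart.

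**Figure D1:**
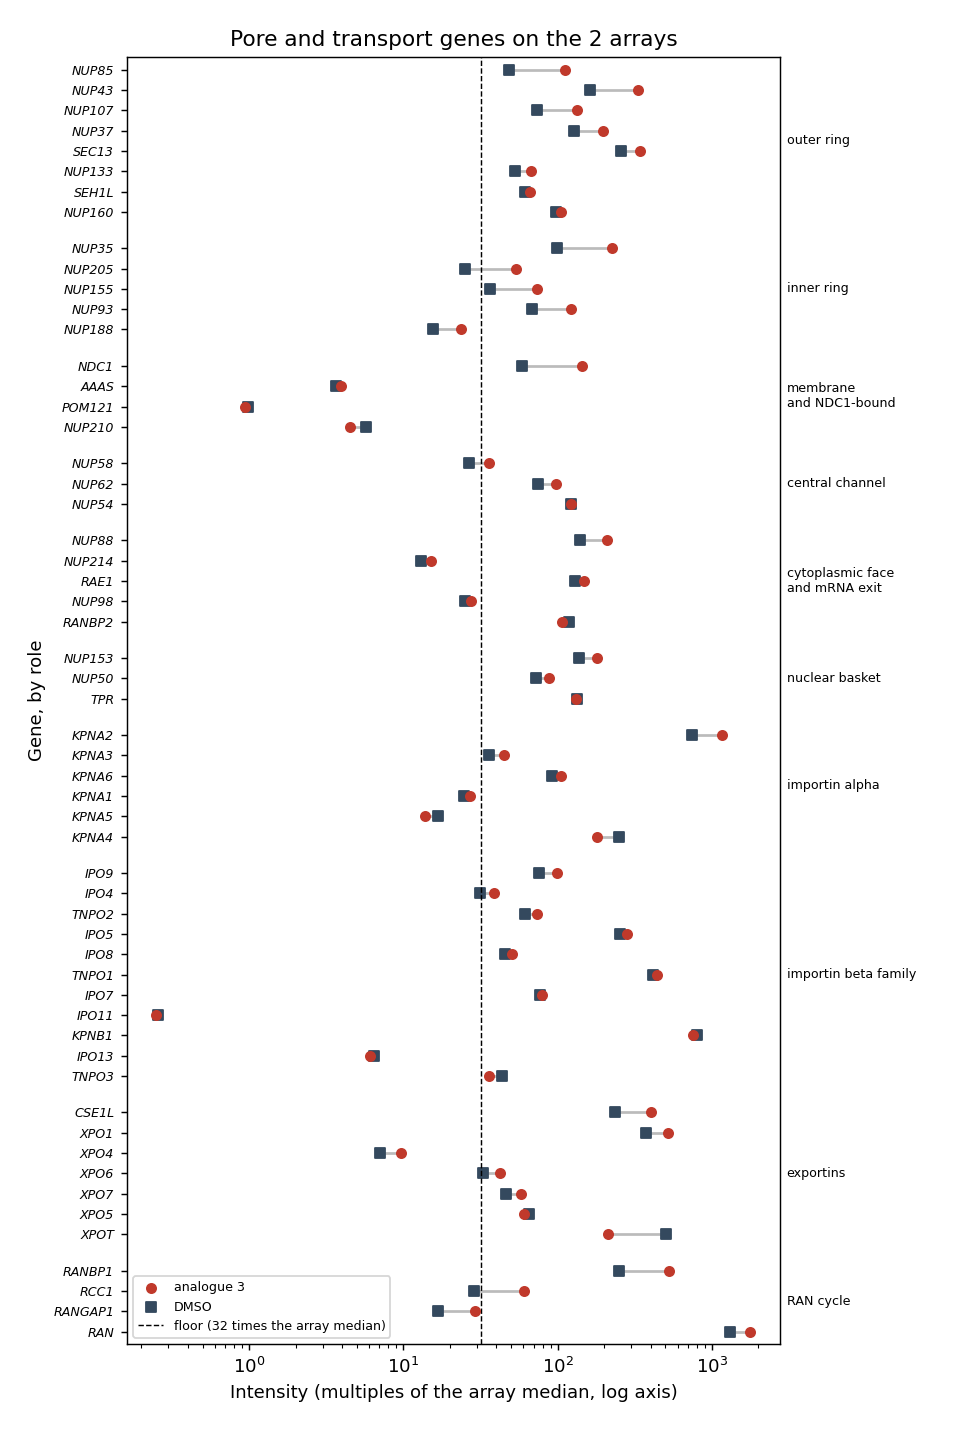
Intensity of the brightest probe set of each of the 56 genes with analogue 3 (red circles) and DMSO (dark squares), on a log axis in multiples of the array median, grouped by role. The dashed line is the floor of 32; XPOT is the widest gap with the DMSO square to the right, at 210.7 with analogue 3, against 506.5 with DMSO.

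The outer ring, or Y complex, is the scaffold that curves the membrane around the pore, and parts of it bind kinetochores in mitosis. All 8 of its genes were measured on both arrays and all 8 differences were above 0, with a median of 0.51. NUP85, which joins the SEH1L and NUP43 arm of the complex, had an intensity of 111.6 with analogue 3 and 48.17 with DMSO and was 2.32-fold higher, which ranked 100 from the top among the 5050 genes. NUP43, a small propeller protein of the same arm, had 329.5 with analogue 3 and 162.7 with DMSO and was 2.03-fold higher (log2 1.02). It was just short of 2-fold after loess removal (log2 0.99) and quantile normalization (0.98). As the median of its probe sets it was at least 0.57, a lower bound, since the DMSO median fell under the floor. Its other probe set, under the floor on both arrays, had 6.87 with analogue 3 and 3.44 with DMSO. NUP107, in the stem of the Y, had 134.4 with analogue 3 and 73.26 with DMSO and was 1.83-fold higher. These 3 genes each stood 0.88 or more above DMSO on the log2 scale, several times the spread of 1 probe set. That spread leaves out culture and array error, and none of the 3 had another probe set that reached the floor on each array. NUP37, a peripheral subunit, had 196 with analogue 3 and 128.5 with DMSO and was 1.53-fold higher. Its value lay just past 1.5-fold, and after quantile normalization it was 0.56 on the log2 scale, just short of that line.

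The remaining 4 genes of the outer ring were closer to DMSO. SEC13, which also forms the coat of secretory vesicles, had 339.3 with analogue 3 and 256.5 with DMSO (log2 0.40). NUP133, the far end of the stem, had 67.4 with analogue 3, against 52.61 with DMSO (log2 0.36). NUP160, which forms the other arm with NUP37, had 104.9 with analogue 3 and 97.54 with DMSO (log2 0.10). SEH1L, which SEC13 resembles and which also acts in the GATOR complex of amino acid sensing, had 66.42 with analogue 3, against 61.64 with DMSO (log2 0.11). The genes of 1 stable complex thus ranged from 0.10 to 1.21 on the log2 scale. For NUP160 the 2 dimmer probe sets, both under the floor on both arrays, had intensities of 26.04 and 9.80 with analogue 3 and 15.4 and 5.60 with DMSO.

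Inner ring genes, whose products hold the scaffold to the membrane and to the central channel, were all higher by their measured values. NUP35, which binds the membrane and NUP155, had an intensity of 225 with analogue 3 and 98.55 with DMSO and was 2.28-fold higher. NUP155, a large membrane-facing scaffold protein, had 73.69 with analogue 3 and 36.51 with DMSO and was 2.02-fold higher, which stands close to the 2-fold line. NUP93, the hub that recruits the channel nucleoporins, had 122.9 with analogue 3 and 68.01 with DMSO and was 1.81-fold higher. All 3 were measured on both arrays. NUP205, a partner of NUP93, had 54.11 with analogue 3 and 25.03 with DMSO, where it was under the floor, and was at least 1.69-fold higher. NUP188, a relative of NUP205, was under the floor on both arrays, with 23.69 with analogue 3, against 15.47 with DMSO. Of the 12 measured genes of both rings, 8 were at least 1.5-fold higher, against 9.45% of all measured genes. NUP205 is among the 8 through its lower bound, and 11 of the 12 reached the floor on each array. Pooling the rings was not a planned comparison. Of the 10 measured nucleoporins outside the rings, 1 was at least 1.5-fold higher, a share near that of all measured genes.

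That gene was NDC1, a membrane protein that anchors new pores and had the largest upward difference of the 44 genes. NDC1 had 144.4 with analogue 3 and 59.13 with DMSO and was 2.44-fold higher (log2 1.29, rank 86 of 5050), and its other probe set had 34.24 with analogue 3, just above the floor, and 16.59 with DMSO, under it. The dimmer probe set gives only a lower bound, which lies within the spread of 1 probe set around DMSO, so it adds no measured check on the brighter one. The other membrane-associated genes were under the floor on both arrays. NUP210, a membrane glycoprotein of the pore, had 4.53 with analogue 3, against 5.71 with DMSO, and AAAS, which NDC1 holds at the pore, had 3.94 with analogue 3 and 3.68 with DMSO. POM121 had 0.939 with analogue 3 and 0.984 with DMSO in its only single-gene probe set. A probe set shared by POM121 and its near-identical copy POM121C, which was kept out of every count, had 147.6 with analogue 3, against 143.8 with DMSO.

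Of the 56 genes, 50 had a promoter in the RefSeq table (GRCh38.p14), with 65 promoters in all. The 250 bases before the annotated start are shown for the 3 genes with the largest upward difference and for XPOT, the gene with the largest downward difference. NDC1 lies at chr1:53838297-53838546 on the minus strand. NUP85 lies at chr17:75205429-75205678, NUP35 at chr2:183124193-183124442 and XPOT at chr12:64404142-64404391, all on the plus strand. Sequences run 5′ to 3′ along the gene, and capitals mark letters that match a searched motif on either strand.
NDC1: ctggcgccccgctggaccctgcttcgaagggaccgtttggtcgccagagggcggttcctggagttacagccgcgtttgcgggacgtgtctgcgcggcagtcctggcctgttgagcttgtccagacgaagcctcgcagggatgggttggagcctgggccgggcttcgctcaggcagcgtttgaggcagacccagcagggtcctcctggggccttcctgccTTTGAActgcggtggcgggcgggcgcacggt
NUP85: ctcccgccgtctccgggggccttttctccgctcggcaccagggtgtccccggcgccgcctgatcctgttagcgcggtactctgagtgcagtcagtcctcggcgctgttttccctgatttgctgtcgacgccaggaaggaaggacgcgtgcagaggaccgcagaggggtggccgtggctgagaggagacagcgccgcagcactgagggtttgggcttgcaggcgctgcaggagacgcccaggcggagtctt
NUP35: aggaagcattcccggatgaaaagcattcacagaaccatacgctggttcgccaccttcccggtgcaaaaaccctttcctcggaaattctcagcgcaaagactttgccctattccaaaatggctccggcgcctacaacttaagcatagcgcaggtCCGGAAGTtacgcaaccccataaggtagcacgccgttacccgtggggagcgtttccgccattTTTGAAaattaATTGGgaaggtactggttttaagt
XPOT: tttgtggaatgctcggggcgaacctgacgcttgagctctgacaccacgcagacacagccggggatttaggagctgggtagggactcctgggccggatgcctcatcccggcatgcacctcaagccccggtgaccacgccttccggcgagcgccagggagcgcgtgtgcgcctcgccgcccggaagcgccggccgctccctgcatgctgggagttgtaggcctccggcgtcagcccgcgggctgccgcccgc

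The motifs searched on both strands were the E2F patterns TTTGGCGC, TTTCCCGC, TTTGCCGC and TTTCGCGC, the CCAAT box CCAAT, the CHR element TTTGAA known from promoters of cell cycle genes, the composite C/EBP-ATF pattern TGATGNAA and the ETS pattern CCGGAAGT. In the windows shown, NDC1 held TTTGAA 31 to 26 bases before the start, and NUP35 held it 35 to 30 bases before the start, with a CCAAT box on the opposite strand after it and an ETS match before it. NUP85 and XPOT held no searched pattern in these letters. Of the 13 members at least 1.5-fold higher, 11 had a promoter, and 6 of the 11 held TTTGAA in at least 1 promoter. Of the 27 measured members whose floored difference was within 1.5-fold and that had a promoter, 2 held it (NUP153 and IPO7). By promoter the counts were 6 of 14 and 2 of 33, and 13.3% of all 35116 promoters in the table held the pattern. The CCAAT box was held by 7 of the 11 and 9 of the 27, with 32.0% of all promoters, and no member of either set held an E2F pattern, with 2.79% of all promoters. The ETS pattern was held by 2 of the 11 and 6 of the 27, with 3.42% of all promoters, and the C/EBP-ATF pattern by 0 of the 11 and 1 of the 27, with 3.14%. No searched patterns overlapped each other in the windows shown above. Members under the floor on both arrays are in neither set, and of these NUP98, IPO11 and RANGAP1 also held TTTGAA and IPO11 an E2F pattern. The counts describe matched letters only. To show how the TTTGAA letters sit in the other 4 higher members, the bases around each match follow, from chr7:135557742-135557767 on the plus strand for NUP205, chr12:102120165-102120190 on the minus strand for NUP37, chr16:56783422-56783447 on the plus strand for NUP93 and chr17:68035626-68035651 on the plus strand for KPNA2, with the match in capitals (TTCAAA is the same pattern on the other strand).
NUP205: cctcgccttaTTTGAAtgggaataat
NUP37: ctgaatacagTTCAAAcctcgcggga
NUP93: ctaagattccTTTGAAactctgaccc
KPNA2: caacgtgtttTTCAAAtccaccaatg
The first base of the match lay 165 bases before the start in NUP205, 66 in NUP37, 24 in the last of 3 NUP93 promoters and 99 in KPNA2. In NUP153 and IPO7, whose differences were within 1.5-fold, it lay 241 and 182 bases before the start.

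Of the 9 measured channel, cytoplasmic and basket nucleoporins, 0 passed 1.5-fold by the floored difference of the brightest probe set. Over all measured genes, 9.45% were at least 1.5-fold higher and 9.13% at least 1.5-fold lower. With 9 genes, a count of 0 is not far from these shares, and NUP58 among the 9 has only a lower bound. In the central channel, whose NUP62, NUP58 and NUP54 proteins form the repeat-rich transport barrier together, NUP62 had 97.3 with analogue 3 and 74.41 with DMSO (log2 0.39). NUP54 had 122.4 with analogue 3, against 121.2 with DMSO (log2 0.01). NUP58 had 35.73 with analogue 3 and 26.75 with DMSO, at least 1.12-fold higher. Only NUP62 and NUP54 were measured on both arrays, and the bound of NUP58 sets no upper limit on its difference (log2 0.42 before the floor). At the cytoplasmic face, NUP88, which docks NUP214 and the mRNA exit machinery, came nearest to the 1.5-fold line, with 207.5 with analogue 3, against 140.5 with DMSO (1.48-fold). RAE1, an mRNA export factor that also binds the spindle, had 148.8 with analogue 3 and 129.3 with DMSO (log2 0.20, and 0.30 in its other probe set above the floor).

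RANBP2, the SUMO ligase of the cytoplasmic filaments, was 1 of only 2 measured nucleoporins below 0, with 107.3 with analogue 3, against 118.7 with DMSO (log2 -0.15). The other was TPR, the long coiled coil of the nuclear basket, with 131.7 with analogue 3 and 133.3 with DMSO (log2 -0.02, and -0.05 in its other bright probe set). Both lay within the spread of 1 probe set around DMSO. NUP153, which ties the basket to the pore and to lamins, had 179.1 with analogue 3, against 138.5 with DMSO (log2 0.37). NUP50, a cofactor that speeds import, had 87.54 with analogue 3 and 71.93 with DMSO (log2 0.28, and 0.43 in its next probe set). A dimmer NUP50 probe set had 60.34 with analogue 3 and 29.99 with DMSO, just under the floor, and was 2.01-fold higher before the floor. Another, under the floor on both arrays, had 21.89 with analogue 3 and 12.17 with DMSO. The size of the NUP50 difference thus depends on the probe set. NUP98, a repeat nucleoporin that pairs with RAE1, and NUP214 were under the floor on both arrays. NUP98 had 27.61 with analogue 3, against 24.91 with DMSO, and NUP214 had 15.07 with analogue 3 and 13.07 with DMSO.

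**Figure D2:**
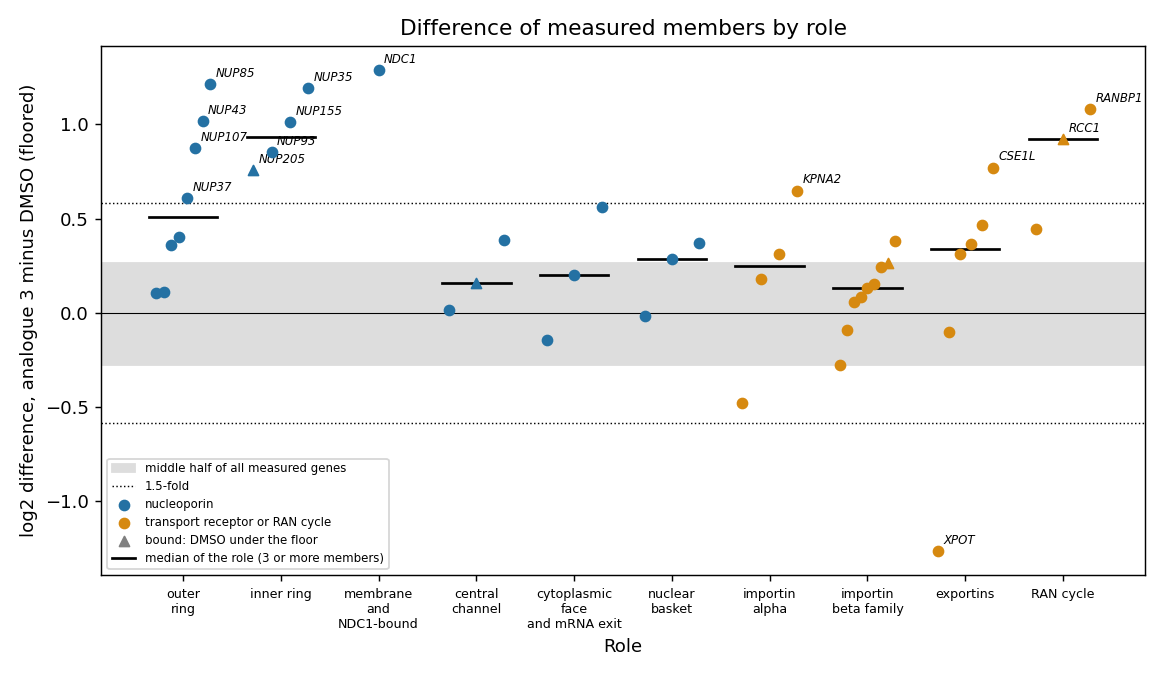
Floored log2 difference, analogue 3 minus DMSO, of the 44 measured genes by role, with nucleoporins in blue and transport genes in orange, triangles for lower bounds, black bars for the median of a role with 3 or more measured genes, and dotted lines at 1.5-fold. Named points are past 1.5-fold; 13 lie above the upper line and XPOT lies below the lower one, and the grey band holds the central quartiles of all measured genes.

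Nucleoporins had a median log2 difference of 0.40 over 22 measured genes, with 20 above 0 and 9 at least 1.5-fold higher. Importins, exportins and RAN cycle genes together had a median of 0.25 over 22 measured genes, with 17 above 0, 4 at least 1.5-fold higher and 1 at least 1.5-fold lower. Over all measured genes, 48.4% were above 0, 9.45% at least 1.5-fold higher and 9.13% at least 1.5-fold lower. Each set held 2 genes measured only through the analogue 3 array, which lie above 0 by that rule. The medians of these sets differed by 0.14 on the log2 scale, with no test, and by 0.09 to 0.59 over the alternatives. The distance was 0.59 for medians over probe sets and 0.50 without _s_at and _x_at probe sets, whose suffix marks possible matches to more than 1 transcript, which left 29.

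Importins lay close to their DMSO levels. Their median was 0.15 over 13 measured genes. Of the 13, 0 were 2-fold different. With 13 genes that is near the shares of all measured genes, 3.47% higher and 2.67% lower. Only 1 of the 13 was at least 1.5-fold higher, a share near the 9.45% of all measured genes. That gene was KPNA2, an importin alpha adaptor that reads classical nuclear localisation signals and in mitosis holds the spindle factor TPX2. KPNA2 had 1169 with analogue 3, against 745.9 with DMSO, 1.57-fold higher, and its other probe set had 851.4 with analogue 3 and 408.9 with DMSO, 2.08-fold higher. The 2 probe sets agree in sign and differ by 0.41 on the log2 scale. In the brighter one the log2 difference was 0.65, and it fell just short of 1.5-fold after loess removal (0.58) and quantile normalization (0.56).

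Its paralogs did not share that value. KPNA4, which carries NF-κB subunits among other cargo, was 1.39-fold lower, with 179.3 with analogue 3, against 249.7 with DMSO, and its next probe set gave the same log2 difference of -0.48 from 80.62 with analogue 3 and 112.8 with DMSO. It was the lowest measured importin. KPNA3, the closest relative of KPNA4, had 44.62 with analogue 3, against 35.93 with DMSO (log2 0.31). KPNA6 had 104.8 with analogue 3 and 92.53 with DMSO (log2 0.18, and 0.21 in its next probe set). The importin alpha genes thus spanned -0.48 to 0.65 with no common direction. KPNA1 and KPNA5, of the same subfamily as KPNA6, were under the floor on both arrays, KPNA1 with 27.23 with analogue 3, against 24.68 with DMSO, and KPNA5 with 13.74 with analogue 3 and 16.67 with DMSO.

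The importin beta family, whose members carry cargo directly or through an adaptor, had a median of 0.13 over 9 measured genes, with 0 past 1.5-fold by floored difference. Of all measured genes, 9.45% were at least 1.5-fold higher and 9.13% at least 1.5-fold lower. With 9 genes, a count of 0 is not far from these shares. KPNB1, the carrier that works with every importin alpha, had 751.8 with analogue 3, against 800 with DMSO (log2 -0.09), and its 6 probe sets ran from -0.13 to 0.15. IPO9, a histone carrier, had 98.72 with analogue 3 and 75.93 with DMSO, the highest of the family at 1.30-fold. IPO5, a carrier of ribosomal proteins and histones, had 282 with analogue 3, against 253.6 with DMSO (log2 0.15). Each of these except IPO9 lay within the spread of 1 probe set around DMSO. IPO7, a carrier of ribosomal proteins and linker histone, had 79.53 with analogue 3 and 76.42 with DMSO (log2 0.06). IPO8, its close relative, had 50.36 with analogue 3, against 45.9 with DMSO (log2 0.13), and IPO4 had 38.43 with analogue 3 and 31.21 with DMSO, at least 1.20-fold higher.

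The transportins differed among themselves and between probe sets. TNPO2 had 73.13 with analogue 3, against 61.84 with DMSO (log2 0.24). TNPO3, the carrier of SR splicing factors, had 35.98 with analogue 3 and 43.59 with DMSO (log2 -0.28) in its brightest probe set and 40.75 with analogue 3, against 37.7 with DMSO (log2 0.11) in the next, so its direction is not settled. TNPO1, the carrier of hnRNP A1, had 438.4 with analogue 3 and 414.3 with DMSO (log2 0.08), but its 7 probe sets above the floor ran from -0.19 to 0.65. The value without _s_at and _x_at probe sets was 0.65. IPO13, which works in both directions, was under the floor with 6.06 with analogue 3, against 6.45 with DMSO. IPO11 had 0.251 with analogue 3 and 0.255 with DMSO in its only single-gene probe set.

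**Figure D3:**
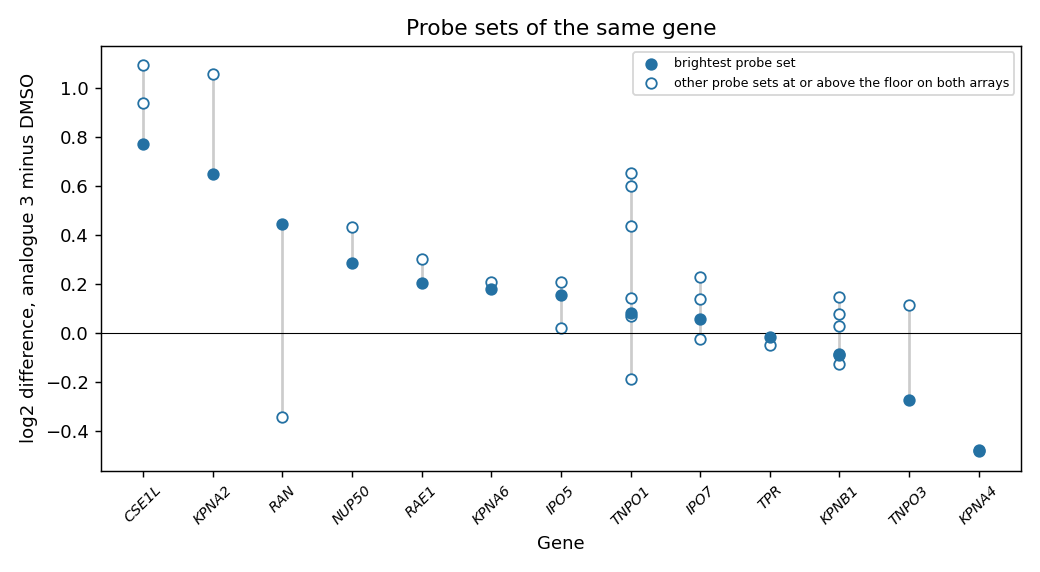
Log2 difference, analogue 3 minus DMSO, of every probe set that reached the floor on each array for the 13 genes that had at least 2, with the brightest probe set filled and the others open. CSE1L and KPNA2 lie above 0 and KPNA4 below 0 in all their probe sets, while RAN, TNPO1, IPO7, KPNB1 and TNPO3 have probe sets on both sides of 0.

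Exportins held both the lowest gene of the list and a gene of the higher set. XPOT, which exports mature tRNAs, had 210.7 with analogue 3 and 506.5 with DMSO, a 2.40-fold lower level (log2 -1.27), rank 71 from the bottom of the 5050 genes. Its other probe set had 25.09 with analogue 3 and 81.57 with DMSO, so that it fell under the floor with analogue 3. Both probe sets were lower with analogue 3, and the log2 difference ran from -1.48 to -1.25 over 10 alternatives. CSE1L, the exportin that returns importin alpha to the cytoplasm, had 404.2 with analogue 3 and 237.1 with DMSO and was 1.70-fold higher (log2 0.77). Its other bright probe sets gave 1.09 and 0.94, from 358.8 and 192.6 with analogue 3 and 168.2 and 100.5 with DMSO. All 3 agree in direction.

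XPO1, the exporter of proteins with a leucine-rich export signal, had 519.3 with analogue 3, against 375.9 with DMSO, 1.38-fold higher and short of 1.5-fold. XPO6, the exporter of actin and profilin, had 42.4 with analogue 3 and 32.87 with DMSO (log2 0.37), just above the floor. XPO7, a broad carrier abundant in red cell precursors, had 57.72 with analogue 3, against 46.46 with DMSO (log2 0.31). These 3 differences lie between 0.31 and 0.47. XPO5, the exporter of microRNA precursors, had 60.79 with analogue 3 and 65.21 with DMSO (log2 -0.10), within the spread of 1 probe set. XPO4, an exporter of the translation factor EIF5A, was under the floor with 9.65 with analogue 3, against 7.09 with DMSO. The median of the 6 measured exportins was 0.34. Read as the median over probe sets, only CSE1L (1.02), XPO6 (0.12) and XPOT (-1.48) were measured, so the class median was the value of XPO6. That value is a lower bound, since the DMSO median of XPO6 fell under the floor.

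In the RAN cycle, the regulators RANBP1 and RCC1 were higher, and the median of the 3 measured genes was 0.92, which is the lower bound of RCC1, a gene measured only through the analogue 3 array. Over RANBP1 and RAN, the 2 genes that reached the floor on each array, the median was 0.76. RANBP1, the RAN-binding protein that frees RAN from carriers for hydrolysis, had 530.1 with analogue 3 and 250.3 with DMSO and was 2.12-fold higher (log2 1.08, rank 143 of 5050). RCC1, the exchange factor, had 60.54 with analogue 3 and 28.88 with DMSO, at least 1.89-fold higher, with 11.74 with analogue 3 and 6.48 with DMSO in its other probe set under the floor. RANGAP1, the GTPase activator, was under the floor on both arrays with 28.97 with analogue 3, against 16.82 with DMSO. In all 3 regulators the intensity was higher on the analogue 3 array. RAN had 1773 with analogue 3 and 1305 with DMSO (log2 0.44) in its brightest probe set but 126.3 with analogue 3, against 160.6 with DMSO (log2 -0.35) in the other, so its direction depends on the probe set. The brightest is an _s_at probe set. RAN is the 1 RAN cycle gene measured once _s_at and _x_at probe sets are left out, and the median of the class was then -0.35.

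Among 13 genes of the list with at least 2 probe sets that reached the floor on each array, 8 had every such probe set on the same side of 0. Of the 14 genes past 1.5-fold in either direction, CSE1L and KPNA2 were the ones that could be checked in this way, and both kept their direction. The brightest probe set ended in _s_at or _x_at for 20 of the 44 measured genes. Values just past 1.5-fold belonged to NUP37 (log2 0.61) and KPNA2 (0.65), and the nearest value short of it to NUP88 (0.56).

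Genes that work beside the pore were counted from lists of their own. Of 24 other pore and transport factors, 18 had a single-gene probe set and 9 were measured, with a median of 0.39. At least 1.5-fold higher, against 9.45% of all measured genes, were 2: NXT2, a cofactor of mRNA export (1.94-fold, 99.71 with analogue 3 and 51.33 with DMSO), and GLE1, which activates the mRNA-releasing helicase at the cytoplasmic face (1.53-fold, 66.83 with analogue 3 and 43.55 with DMSO). None of the 9 was at least 1.5-fold lower, which for 9 genes is not far from the 9.13% of all measured genes. The largest downward differences were in TOR1A, an ATPase of the nuclear envelope lumen (1.15-fold, 37.62 with analogue 3 and 43.37 with DMSO), and MCM3AP, a scaffold of mRNA export (1.13-fold, 40.96 with analogue 3 and 46.29 with DMSO).

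Of 17 mRNA export genes, 13 were measured with a median of 0.13, and 1 was at least 1.5-fold higher, a share near the 9.45% of all measured genes. That gene was ALYREF, an adaptor that hands mRNA to the export receptor, at 462.8 with analogue 3 and 183.9 with DMSO (2.52-fold higher). The next upward was the cap-binding gene NCBP1, at least 1.36-fold higher, and the largest downward differences were in the adaptor gene FYTTD1 (1.32-fold) and in THOC1 of the THO complex (1.07-fold). Of 15 genes of the nuclear lamina and inner membrane, 11 were measured with a median of 0.36, and 5 were at least 1.5-fold higher, against 9.45% of all measured genes. Of the 11, 8 were measured on both arrays and 3 only through the analogue 3 array. The lamina-binding protein gene TMPO had 297.2 with analogue 3, against 138.7 with DMSO (2.14-fold), and NEMP1, an inner membrane protein gene, had 70.55 with analogue 3 and 39.94 with DMSO (1.77-fold). None of the 11 was at least 1.5-fold lower, which for 11 genes is not far from the 9.13% of all measured genes. The lowest were SUN1, part of the bridge to the cytoskeleton (1.23-fold lower), and TOR1AIP1, an activator of torsin (1.18-fold lower).

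**Figure D4:**
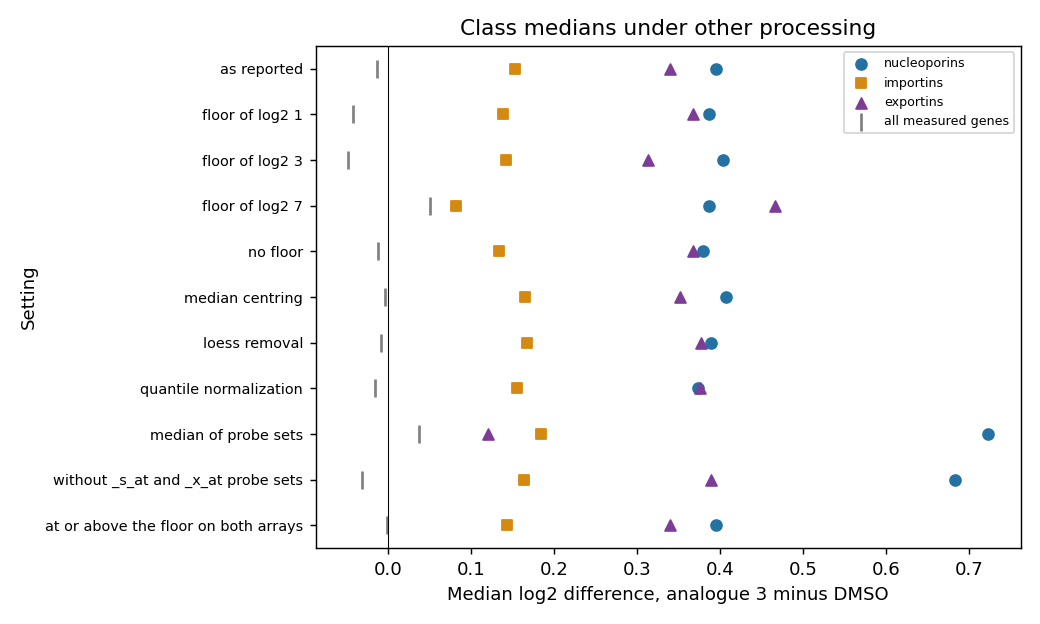
Median log2 difference, analogue 3 minus DMSO, of nucleoporins, importins and exportins under each way of processing, with the median of all measured genes as grey ticks. The nucleoporin median lies to the right of the importin median in every setting shown, between 0.37 and 0.72 for nucleoporins and between 0.08 and 0.18 for importins. The exportin median exceeds the nucleoporin median with a floor of log2 7 (0.47 against 0.39) and after quantile normalization (0.3753 against 0.3740). RAN cycle medians, which ran from -0.35 to 0.94, are not plotted.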

How the data were processed

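The authors deposited linear intensity values, 1 for each of 54675 probe sets on each array. The submitters' processing notes name GCRMA (the sources used here give no version), and a median of 1 on each array shows a further scaling that no label states. Probe sets were named from the platform annotation, in which 41097 had 1 gene symbol, 1801 several and 11777 were unlisted; 41043 matched RefSeq by gene number. The floor of log2 5 was reached by 13.1% of probe sets with analogue 3 and 13.4% with DMSO. Calls are floored differences of at least 1.5-fold or 2-fold, with no test, since there was 1 array per group; the number of arrays limits the precision.

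The members and lists were chosen with earlier results of these data known. All members are named, and of each other list up to 2 genes with the largest difference each way. Promoters came from RefSeq; protein sequences were not used here. Alternatives were other floors, median centring, loess removal (span 0.3), quantile normalization, the median over probe sets of a gene and omission of _s_at and _x_at probe sets. The procedure was tested on simulated data. Python 3.11.15, pandas 2.3.3, numpy 2.4.6, statsmodels 0.14.6 and matplotlib 3.10.9 were used.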

Additional observations from a re-analysis of the deposited data

Results flagged for a closer look

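Signal outside the gene comparison was found for IPO11, an importin beta family gene. A probe set that the annotation gives to both IPO11 and the read-through gene IPO11-LRRC70 had an intensity of 32.63 with analogue 3 and 20.73 with DMSO. The ratio was 1.57 before the floor. DMSO was under the floor and analogue 3 just above it, so the floored value is at least 1.02-fold higher, within the spread of 1 probe set. Another shared probe set had 25.16 with analogue 3 and 16.46 with DMSO. The single-gene probe set of IPO11 had 0.251 with analogue 3 and 0.255 with DMSO. There is 1 DMSO array to set the background, and no test was possible.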

How the results depend on the processing

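Over 10 alternatives, 9 of them planned, the count of members at least 1.5-fold higher ran from 6 to 15 and the count at least 2-fold higher from 2 to 8, while 1 member was at least 2-fold lower in each. The members measured ran from 20 to 56. The shares of all genes measured ran from 6.87% to 11.5% at 1.5-fold higher and from 2.22% to 4.14% at 2-fold higher. With a floor of log2 7, which left 20 members measured, 6 were at least 1.5-fold higher (7.6% of all genes measured there) and 2 at least 2-fold higher (2.22%). Read as the median over probe sets, which left 23 members, 7 were at least 1.5-fold higher (11.5% of all genes). The nucleoporin median was then 0.72 and the distance between nucleoporins and the other classes 0.59. The exportin median was 0.12, the lower bound of XPO6, and the RAN cycle median was 0.048, from RAN alone. Without _s_at and _x_at probe sets, 3 of 29 members were at least 2-fold higher (3.67% of all genes). The nucleoporin median was 0.68, the distance 0.50 and the RAN cycle median -0.35, where RAN is the class's remaining gene. These settings measure fewer genes by construction. Keeping only members that reached the floor on each array, an alternative added after seeing the data, gave 11 of 40 members at least 1.5-fold higher (9.26% of all genes). Of 376 values of single members under the alternatives, 356 moved by less than the SD of 1 probe set over all genes. Another 20 moved by more, and 0 members past 1.5-fold changed sign. Lower floors, no floor and the both-array rule cannot change a member that reached the floor on each array. Much of this count was thus fixed in advance, and members not measured under an alternative are not in it. No paired analysis was possible because each group had 1 array. Leaving out an array would leave no comparison, and the floor sets which low members can be read.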
